A study of Mus musculus with 16 samples.

Results

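The plasminogen activator system turns the circulating zymogen plasminogen into plasmin, a protease that dissolves fibrin clots and degrades matrix around migrating cells. Urokinase (uPA) and tissue-type activator (tPA) cleave plasminogen, the urokinase receptor (uPAR) holds urokinase at the cell surface, and serpins block the activators or plasmin itself. In liver, hepatocytes secrete plasminogen and alpha2-antiplasmin into blood, whereas urokinase, its receptor and tissue-type activator are known mainly from immune, endothelial and stromal cells. The 6 genes described here, of 41079 in the table, were chosen by name from this pathway after results of the LKO against CRE- contrasts were known, so their values in those contrasts are a description and support nothing. They encode the activators (Plau, Plat), the receptor (Plaur), the zymogen (Plg) and the inhibitors (Serpine2, Serpinf2), and all 6 passed the filter on low counts.

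Bulk liver RNA was sequenced from 16 C57BL/6J mice aged 20 to 22 months, 4 of each sex with the knockout (LKO) and 4 of each sex without it (CRE-). All 16 mice carried Gcgr alleles with loxP sites around part of the glucagon receptor gene. The LKO mice also carried Albumin-Cre, which is active in hepatocytes from early life, so the deletion was lifelong and the controls differed from them in lacking Cre. The study asked how loss of the hepatic glucagon receptor affects ageing males and females. Between 33268424 and 56488920 reads per library were counted on genes, and levels are given as CPM (counts scaled to a normalized library total) or, to compare genes, as RPKM (CPM per kilobase of transcript). In bulk tissue, fewer cells of a type and less RNA per cell cannot be told apart.

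The targeted gene, Gcgr (chromosome 11, 120420011 to 120429815 on GRCm39), was at 190, 193, 127 and 190 CPM in male CRE- replicates 1 to 4 and at 117, 136, 130 and 160 CPM in male LKO replicates 1 to 4. It was at 162, 208, 201 and 180 CPM in female CRE- livers and at 48.8, 132, 119 and 93.6 CPM in female LKO livers. Every female LKO liver lay below every female control, while the male groups overlapped because male CRE- replicate 3 was low. The count covers the gene's full length, with exons that the deletion spares, and the source of the reads left in LKO libraries was not tested. The livers carried their tissue's markers: the 6 hepatocyte genes summed to between 48000 and 126000 CPM in each library, and the most abundant of them was Alb, serum albumin.

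The members spanned a wide range of levels. In female CRE- livers Plg was at 1120 ± 135 RPKM and Serpinf2 at 543 ± 135 RPKM (SD, n = 4), both far above the other members. Serpine2 was at 2.19 ± 0.527 RPKM, Plau at 1.03 ± 0.242 RPKM, Plaur at 0.528 ± 0.171 RPKM and Plat at 0.439 ± 0.159 RPKM (SD, n = 4). On this RPKM scale the values of Plaur overlapped those of both Plau and Plat, so the order of these genes was not settled, whereas Plg lay above Serpinf2 and Serpinf2 above Serpine2 in every control liver. Male CRE- livers had Plg at 844 ± 52.9 RPKM, Serpinf2 at 394 ± 80.8 RPKM, Serpine2 at 2.69 ± 0.724 RPKM, Plau at 2.32 ± 1.12 RPKM, Plaur at 0.842 ± 0.384 RPKM and Plat at 0.514 ± 0.246 RPKM (SD, n = 4), the same order of means. There Serpine2 overlapped Plau, and Plaur overlapped Plat, on the RPKM scale.

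Plau (chromosome 14, 20886730 to 20893456) encodes urokinase, the activator bound by uPAR. In female CRE- replicates 1 to 4 it was at 2.62, 1.75, 2.73 and 3.21 CPM, and in female LKO replicates 1 to 4 at 29.1, 3.22, 5.78 and 8.04 CPM. The female groups did not overlap, but LKO replicate 2 lay just above the highest control and replicate 1 was several times higher than any other liver. The difference in females came to a log2 fold change of 2.16 (SE 0.55), or 1.16 when female LKO replicate 1 was left out. In males Plau was at 3.61, 3.48, 9.26 and 6.97 CPM in CRE- livers and at 6.15, 2.94, 2.88 and 3.57 CPM in LKO livers, with a log2 fold change of -0.58 (SE 0.53). Leaving out each male liver in turn gave -0.91 to -0.29. The male groups overlapped, with the 2 highest male livers among the controls.

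Plat (chromosome 8, 23247655 to 23272864) encodes tPA, the activator that works on fibrin and is made by endothelium. Its level was 1.64, 0.623, 1.13 and 1.28 CPM in female CRE- livers and 1.56, 1.80, 1.83 and 20.9 CPM in female LKO livers. A single liver, female LKO replicate 4, held the high value, and the other 3 LKO livers lay at or near the upper end of the controls. The log2 fold change was 2.48 (SE 0.78) with that liver and 0.57 without it. In males Plat was at 0.69, 0.98, 2.13 and 1.66 CPM in CRE- livers and at 1.80, 0.416, 0.547 and 1.19 CPM in LKO livers, a log2 fold change of -0.47 (SE 0.76) with overlapping groups. This male change ranged from -0.95 to -0.19 with each male liver left out in turn.

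Plaur (chromosome 7, 24161857 to 24175393) encodes uPAR, the receptor that concentrates urokinase on leukocytes and other cells. Female LKO replicates 1 to 4 had 3.90, 3.14, 2.40 and 5.67 CPM against 1.33, 0.856, 0.766 and 0.668 CPM in female CRE- replicates 1 to 4. All 4 LKO livers were above all 4 controls, and here no single liver set the difference. The log2 fold change was 2.05 (SE 0.43) and stayed between 1.79 and 2.30 with each female liver left out in turn. Male CRE- livers had 1.56, 1.09, 0.806 and 2.31 CPM and male LKO livers 2.7, 1.71, 1.12 and 0.918 CPM, so these groups overlapped over nearly their whole range. Leaving out male CRE- replicate 3 turned the male log2 fold change from 0.16 (SE 0.41) to -0.06, and leaving out male LKO replicate 1 turned it to -0.23.

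Plg (chromosome 17, 12597496 to 12638271) encodes plasminogen, the substrate of both activators. Female CRE- livers had 3590, 2750, 2890 and 3150 CPM, and female LKO livers had 1800, 2240, 2410 and 1950 CPM. Every female LKO liver was below every female control, and the LKO livers lay in the range of the males. The log2 fold change was -0.56 (SE 0.18). Male CRE- livers had 2170, 2430, 2230 and 2470 CPM and male LKO livers 1770, 2410, 2400 and 2250 CPM, a log2 fold change of -0.07 (SE 0.17). These groups overlapped, with male LKO replicate 1 the lowest of the males.

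Serpine2 (chromosome 1, 79772038 to 79836382) encodes protease nexin-1, a serpin that inhibits urokinase and thrombin near cells. Male LKO replicates 1 to 4 had 6.12, 16.6, 21.2 and 16.4 CPM against 5.46, 8.11, 8.79 and 5.12 CPM in male CRE- livers. Of the male LKO livers, 3 were above all male controls, and replicate 1 lay among them. The log2 fold change in males was 1.14 (SE 0.44). In females the values were 5.59, 5.76, 7.13 and 3.85 CPM in CRE- livers and 11.9, 5.29, 5.49 and 1.74 CPM in LKO livers, where replicate 1 was the highest and replicate 4 the lowest female liver. The female log2 fold change of 0.13 (SE 0.44) turned to -0.39 when LKO replicate 1 was left out and to -0.01 when CRE- replicate 4 was.

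Serpinf2 (chromosome 11, 75322562 to 75330327) encodes alpha2-antiplasmin, the main inhibitor of plasmin in blood. It was at 1400, 971, 902 and 1490 CPM in female CRE- livers and at 832, 869, 1070 and 833 CPM in female LKO livers. LKO replicate 3 lay within the controls and the other 3 LKO livers below them, for a log2 fold change of -0.40 (SE 0.21). In males it was at 771, 797, 758 and 1130 CPM in CRE- livers and at 608, 793, 933 and 859 CPM in LKO livers. The male groups overlapped, with a log2 fold change of -0.11 (SE 0.21) that was 0.04 without CRE- replicate 4. A predicted gene, Gm35391, overlaps Serpinf2 on the opposite strand and had 27 to 113 reads per library, far fewer than Serpinf2.

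**Figure D1:**
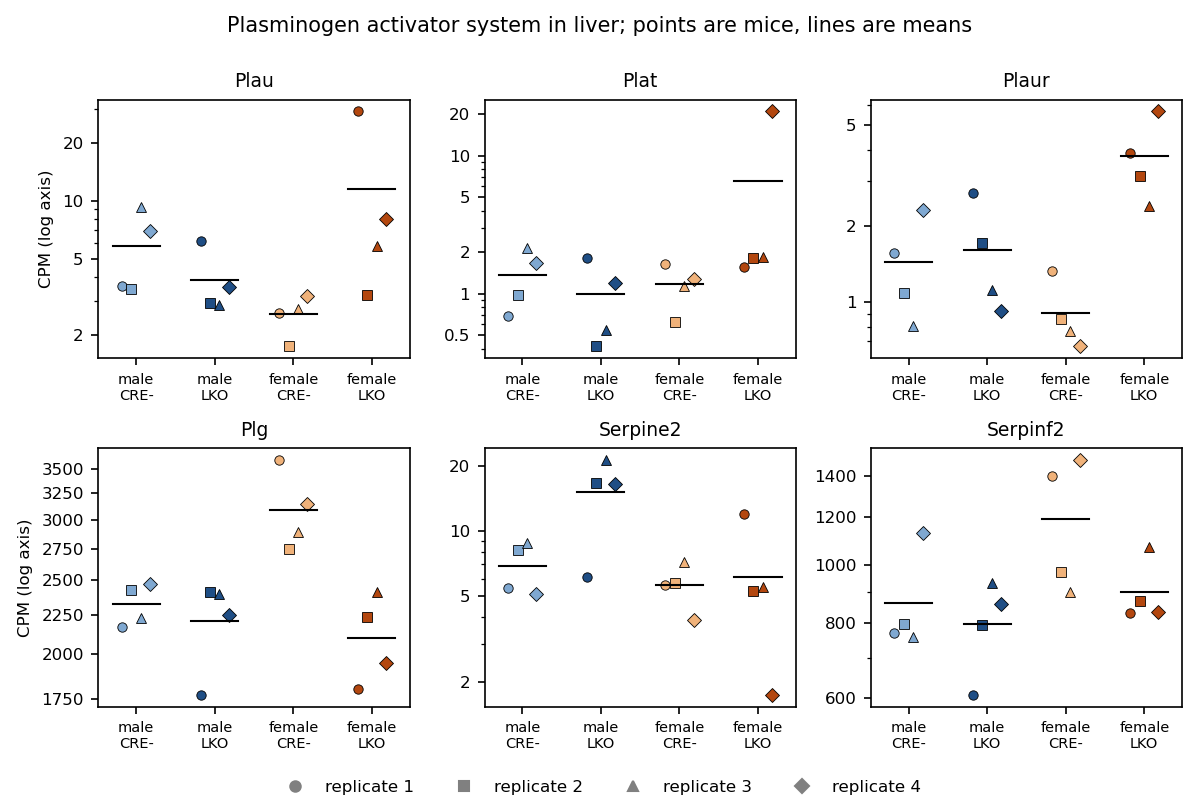
CPM (log axis) of the 6 genes in each of the 16 livers, by group, with a marker shape for each replicate and a line at the group mean. All 4 female LKO livers lie above the female controls for Plaur, while Plau is led by female LKO replicate 1 (29.1 CPM) and Plat by female LKO replicate 4 (20.9 CPM).

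Across the genes tested, 4.24% were called in female LKO livers by edgeR (adjusted p under 0.05), and 2 of the 6 members, Plau and Plaur, were among them. This contrast chose the members, so nothing is read from that count. It was 0 of 6 without female CRE- replicate 2, 3 or 4, and 1 of 6 without CRE- replicate 1, LKO replicate 1 or LKO replicate 4. With only the female groups fitted, Plaur passed and Plau did not. DESeq2 called 10.1% of its genes and 3 of the 5 members it gave an adjusted p, with Plg as the added call. In male LKO livers edgeR called 0.454% of genes and 0 of the 6 members, and DESeq2 called 1.70% of genes and 0 members. By edgeR 1 member, Serpine2, was at an unadjusted p under 0.05 in males, as were 1595 of the 16742 genes. In females 3584 of the 16742 genes were at an unadjusted p under 0.05. These are the backgrounds for the unadjusted counts of the lists below. The median log2 fold change over the members was 1.09 in females, against 0.04 over all genes tested, and -0.09 in males, against -0.01. The female median rests on which members are counted, since they went both ways: it was 0.14 in DESeq2, over the 5 members that leave out Plat, against 0.06 over all its genes. The female and male groups of a gene did not overlap for 11.6% and 6.49% of all genes and for 3 and 0 members, the 3 being Plau, Plaur and Plg in females.

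For the difference between the female and male changes, edgeR called 0 of the 16742 genes (0%) and 0 members, with 2672 genes and 3 members (Plau, Plaur and Plat) at an unadjusted p under 0.05. DESeq2 called 369 genes (2.19%) and 2 members, Plau and Plaur. The female minus male log2 change was 2.75 (SE 0.76) for Plau, 1.90 (SE 0.59) for Plaur, 2.95 (SE 1.08) for Plat, -0.48 (SE 0.25) for Plg, -1.0 (SE 0.62) for Serpine2 and -0.29 (SE 0.30) for Serpinf2. That of Plat was 1.05 without female LKO replicate 4, and that of Plau 1.75 without female LKO replicate 1. Since the tools placed Plau and Plaur on different sides of the threshold, a sex difference in these genes was not settled.

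**Figure D2:**
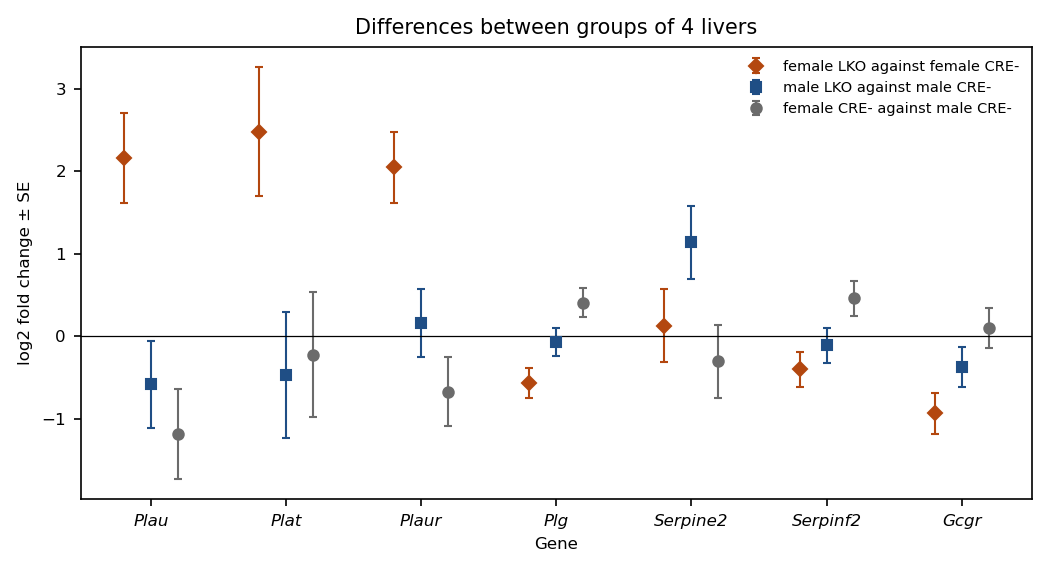
Log2 fold changes with their SE from edgeR for the 6 genes and Gcgr, in female LKO against female CRE-, male LKO against male CRE- and female CRE- against male CRE- livers (4 livers a group). Plau, Plat and Plaur lie at 2.16, 2.48 and 2.05 in females, and Serpine2 at 1.14 in males.

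Control livers of the sexes were compared directly, a contrast that the choice of members did not use, although it shares its libraries with the contrasts above, so a low female control value enters both. Plau was lower in female than in male controls, with no overlap (log2 fold change -1.18, 95% interval -2.32 to -0.03), and Plg was higher, with no overlap (0.41, 95% interval 0.04 to 0.78). Groups without overlap made up 7.54% of all genes and 2 of the 6 members. Neither passed the threshold over all genes, with adjusted p = 0.380 for Plau and 0.339 for Plg by edgeR (quasi-likelihood test, Benjamini-Hochberg adjusted). Serpinf2 was at a log2 fold change of 0.46 (95% interval 0.01 to 0.92, edgeR adjusted p = 0.385), with female CRE- replicates 1 and 4 above all male controls and the other 2 among them. For Plaur, Serpine2 and Plat the log2 fold changes were -0.67, -0.30 and -0.22, with 95% intervals of -1.55 to 0.21, -1.23 to 0.64 and -1.82 to 1.38, which allow differences of more than a doubling. In all, edgeR called 0.92% of genes and 0 members, and DESeq2 called 2.65% of genes and 0 members. At an unadjusted p under 0.05 by edgeR were 3 of the 6 members and 2121 of the 16742 genes. Markers of other cell types moved in this comparison. Among the marker genes edgeR called 1, Krt19 of the cholangiocyte list. It was higher in female controls without overlap (log2 fold change 1.66, edgeR adjusted p = 0.030). DESeq2 called 1 cholangiocyte gene as higher and 1 erythroid gene as lower. In the lists named next edgeR called 0. All 6 hepatocyte genes were higher in female controls (median log2 fold change 0.31), Alb without overlap. All 8 neutrophil genes tested were lower (median -1.58), as were all 5 recruited monocyte and macrophage genes (median -0.94). The part of these cells in the levels of Plg and Plau was not tested.

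Within groups, the members were compared by the correlation of their log2 CPM over the 16 livers after the group means were taken out, which the choice of members did not use. Of 15 pairs, plasminogen and its downstream inhibitor moved together: Plg and Serpinf2 had Pearson r = 0.77 (permutation p = 0.00139, adjusted p = 0.0208) and Spearman rho = 0.76 (permutation p = 0.00038, adjusted p = 0.0057). Without male LKO replicate 1 and female LKO replicate 1, whose Plg lay farthest from the median, r was 0.74 (permutation p = 0.0105, adjusted p = 0.0996), so the size held and the call did not. Plat and Serpine2 had r = -0.72 and rho = -0.46 (permutation p = 0.0361 and 0.123, adjusted p = 0.205 and 0.529). This rested on female LKO replicate 4 and male LKO replicate 1, without which r was -0.31. Plaur and Serpine2 had r = -0.56 and rho = -0.59 (permutation p = 0.0410 and 0.0374, adjusted p = 0.205 and 0.281), and r was -0.41 without the 2 farthest livers. Plau and Plaur, ligand and receptor, had r = 0.21 and rho = 0.19 (permutation p = 0.490 and 0.534, adjusted p = 0.803 and 0.799). In the female LKO group Plau was highest in replicate 1 and Plaur and Plat in replicate 4, while male LKO replicate 1 was the highest of its group for Plau, Plaur and Plat.

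Over all 16 livers, group differences included, the 5 genes most like Plau among 13079 genes with a mean of at least 1 CPM were Mamld1, Prkx, Cenpe, Piezo1 and Arf3, with r from 0.91 to 0.92. Cenpe encodes a kinetochore motor of dividing cells and Piezo1 a mechanically gated ion channel. Without male CRE- replicate 3 and female LKO replicate 1 their r was 0.72 to 0.81. The 5 most like Plaur were Csf2rb2, Ms4a4a, Ier3, Casp4 and Rbm3, with r from 0.90 to 0.91, and from 0.82 to 0.89 without female LKO replicates 1 and 4. Csf2rb2 encodes a receptor subunit for interleukin-3, Casp4 an inflammatory caspase and Ier3 an immediate early response protein. The lists shared no gene. These were the highest of many correlations and share the libraries and their depth, so they are given as a description.

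Markers of other cell types moved with Plau, Plaur and Plat in the female LKO livers, and their part in those values was not tested. The 8 Kupffer cell and macrophage genes summed to 678, 519, 568 and 967 CPM in female CRE- livers and to 3700, 867, 1980 and 1080 CPM in female LKO livers, with Cd5l the most abundant and none at 0. Female LKO replicate 1, the liver with the most Plau, had the highest sum. In males the sums were 791, 431, 248 and 1160 CPM in CRE- livers and 1030, 580, 660 and 588 CPM in LKO livers. Male CRE- replicate 3 had the most Plau of its group but the lowest sum. Male LKO replicate 1 had the most Plau and the highest sum of its group. In females edgeR called 1 of the 8 genes, Adgre1, and all 8 had an unadjusted p under 0.05, while DESeq2 called 7, all higher. The 9 neutrophil genes summed to 38.5, 21.2, 17.2 and 19.3 CPM in female CRE- livers and to 131, 46.3, 72.6 and 629 CPM in female LKO livers, with S100a9 the most abundant. Here replicate 4, the liver with the most Plaur and Plat, had the highest sum. Of the 8 neutrophil genes tested, edgeR called 3 as higher in females (Mmp8, Ngp and Retnlg), and DESeq2 called all 9. In males the neutrophil sum was 94.0, 21.4, 18.7 and 186 CPM in CRE- livers and 27.7, 17.3, 13.4 and 12.6 CPM in LKO livers, with Ly6g at 0 in all 4 LKO livers. No male neutrophil gene was called by edgeR, with 7 at an unadjusted p under 0.05, and DESeq2 called 3 as lower.

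The recruited monocyte and macrophage genes, 5 in all, summed to 20.9, 8.56, 12.4 and 19 CPM in female CRE- livers and to 90.5, 33.9, 35.6 and 51.1 CPM in female LKO livers, led by Ccr2, with 1 called by edgeR (Trem2) and 4 by DESeq2, all higher. The 5 proliferation genes summed to 9.60, 7.96, 4.60 and 17.3 CPM in female CRE- livers and to 76.2, 14.9, 30.2 and 31.6 CPM in female LKO livers, led by Mki67, with 4 called by edgeR as higher. Replicate 1 again had the highest sum in both lists. The 3 vascular endothelial genes, markers of a cell type known to make tPA, summed to 72.1, 72.8, 73.7 and 72.0 CPM in female CRE- livers and to 144, 89.4, 102 and 150 CPM in female LKO livers, led by Cdh5, with Cdh5 and Vwf called by edgeR. The part of these cells in the level of Plat was not tested.

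The summed level of the hepatocyte genes, most of it Alb, was 109000, 106000, 111000 and 126000 CPM in female CRE- livers and 48000, 87000, 83500 and 65500 CPM in female LKO livers, without overlap, and 64700, 89700, 102000 and 88600 CPM in male CRE- livers against 60100, 68800, 84700 and 69700 CPM in male LKO livers. Within female LKO livers, replicate 1 had both the lowest hepatocyte sum and the least Plg. In males the mean sum was 86200 CPM in CRE- and 70800 CPM in LKO livers, while Plg differed little. In females all 6 genes had a log2 fold change below 0, with a median of -0.73 against 0.04 over all genes tested, and Alb (-0.69) was the only gene whose groups did not overlap. None of the 6 hepatocyte genes was at 0, edgeR called 0 of them in females, and DESeq2 called 1 as lower. By edgeR 2 of the 6 were at an unadjusted p under 0.05 in females, as were 3584 of all 16742 genes. Their part in the level of Plg was not tested. In the lists for T cells with NK cells, for B lymphocytes with plasma cells, and for sinusoidal endothelium, stellate cells and fibroblasts, cholangiocytes and erythroid cells, edgeR called 0 genes in females, with 0, 1, 2, 0, 0 and 0 at an unadjusted p under 0.05, and DESeq2 called 1, in sinusoidal endothelium. The 3 erythroid genes, led by Hbb-bs, summed to 432, 397, 315 and 616 CPM in female CRE- livers and to 329, 691, 229 and 1360 CPM in female LKO livers. These female groups overlapped, with LKO livers both above and below all the controls. Male sums were lower in LKO livers without overlap, at 618, 535, 449 and 854 CPM in CRE- and 163, 334, 267 and 403 CPM in LKO livers. In males edgeR called 0 of these genes, with 2 at an unadjusted p under 0.05. Female LKO replicate 4 thus had the highest erythroid sum of all 16 livers. It was also the liver with the most Plat and Plaur and the highest neutrophil sum, and the part of erythroid cells in those values was not tested.

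**Figure D3:**
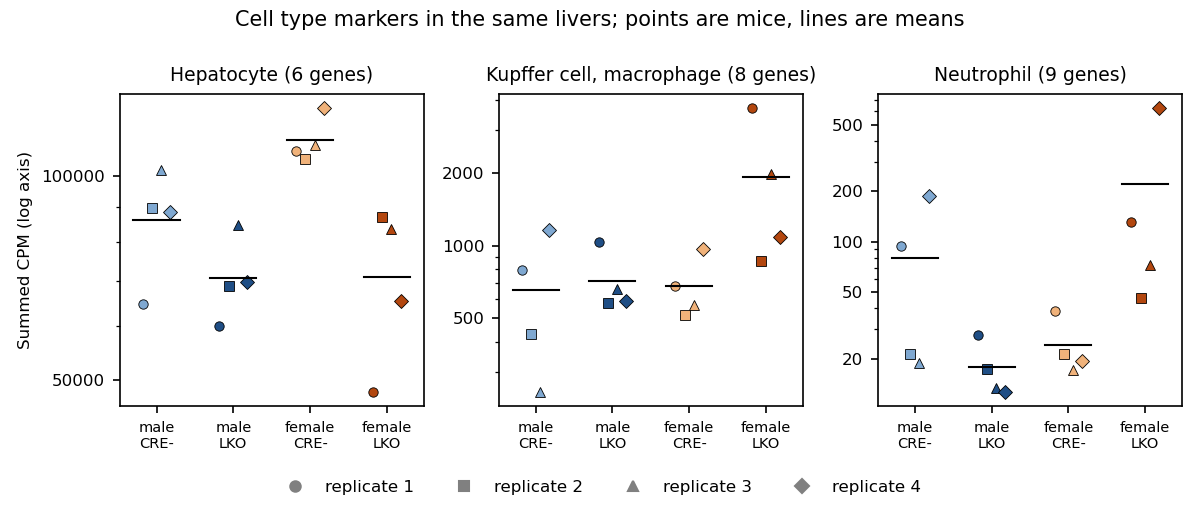
Summed CPM (log axis) of the hepatocyte, Kupffer cell and macrophage, and neutrophil genes in each liver, with a marker shape for each replicate and a line at the group mean. Female LKO replicate 1 has the highest Kupffer cell and macrophage sum (3700 CPM) and replicate 4 the highest neutrophil sum (629 CPM).

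The rest of the pathway was described from lists of further activators and inhibitors, receptors and partners, substrates and downstream proteases, and transcription factors of the Plau promoter. Of the 13 activators and inhibitors, 10 were tested. In males edgeR called 0 of them, with 1 at an unadjusted p under 0.05, and DESeq2 called 0. That gene was Pzp, a broad protease inhibitor, at a log2 fold change of -0.49 (SE 0.23, edgeR adjusted p = 0.516), and next came Vtn, the adhesive plasma protein vitronectin, at -0.30 (SE 0.21). Leaving out each male liver in turn gave -0.59 to -0.28 for Pzp and -0.39 to -0.18 for Vtn. Klkb1, plasma kallikrein, was at -0.51 (SE 0.26, edgeR adjusted p = 0.258) in females. Between control sexes Hrg, which binds plasminogen, was at 0.29 (SE 0.20), and at 0.14 to 0.38 with each control liver left out.

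Of the 19 receptors and partners, all were tested, and in females 1 rose and 1 fell by edgeR, with 4 higher and 1 lower by DESeq2. Itgam, the integrin chain that pairs with uPAR on myeloid cells, rose from 3.82 ± 2.34 CPM to 22.7 ± 17.1 CPM (SD, n = 4) with a log2 change of 2.57 (SE 0.64, edgeR adjusted p = 0.0369). It was at 45.5 CPM in LKO replicate 1, and the lowest LKO liver, at 5.86 CPM, was below the highest control. Lrpap1, the chaperone of the LRP1 receptor that clears proteases from the cell surface, fell from 74.1 ± 6.83 CPM to 45.9 ± 5.54 CPM (SD, n = 4) without overlap, a log2 fold change of -0.69 (SE 0.15, edgeR adjusted p = 0.0256). With each female liver left out in turn, the log2 fold change of Itgam stayed between 2.0 and 3.09 and that of Lrpap1 between -0.77 and -0.61, and each passed the threshold in 3 of the 8 fits. With only the female groups fitted, neither passed (Itgam 2.57, edgeR adjusted p = 0.0758, and Lrpap1 -0.67, edgeR adjusted p = 0.0746). In males edgeR and DESeq2 called 0, with 2 at an unadjusted p under 0.05, which were Lrp1 itself at -0.76 (SE 0.30) and Mrc2, a collagen receptor associated with uPAR, at -0.82 (SE 0.37). With each male liver left out in turn, Lrp1 ranged from -0.92 to -0.49 and Mrc2 from -1.01 to -0.34. Between control sexes edgeR called 0, with 5 at an unadjusted p under 0.05, and DESeq2 called 1 as lower. Egfr, the epidermal growth factor receptor, had the smallest p there, with a log2 fold change of -2.14 (SE 0.58, edgeR adjusted p = 0.110), and -3.21 with an edgeR adjusted p of 0.00427 without female CRE- replicate 1. Vldlr, another receptor that takes up serpin complexes, was at 1.57 (SE 0.51).

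All 18 substrates and downstream proteases were tested, and edgeR called 1 in females, against 3 higher and 2 lower by DESeq2. Hgfac, the protease that activates hepatocyte growth factor, fell from 379 ± 31.6 CPM to 192 ± 68.8 CPM (SD, n = 4) without overlap, with a log2 fold change of -0.98 (SE 0.23, edgeR adjusted p = 0.0308) that stayed between -1.19 and -0.82 with each female liver left out and passed in 2 of those 8 fits. With only the female groups fitted it did not pass (-0.96, edgeR adjusted p = 0.102). In males and between control sexes edgeR and DESeq2 called 0, with 2 at an unadjusted p under 0.05 in each by edgeR. In males these were Fn1, fibronectin, at -0.53 (SE 0.22) and Mmp3, stromelysin-1, at 2.42 (SE 1.13). Between control sexes they were Mmp3 at 2.87 (SE 1.12) and F13b, the carrier subunit of the clot-stabilizing factor XIII, at 0.44 (SE 0.18). Mmp3 was at or below 0.447 CPM in every liver except female LKO replicate 1, which had 1.11 CPM, so counting error adds to its spread.

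Of the 8 transcription factors, 7 were tested, and edgeR and DESeq2 each called 1 as higher in females. Ets2, an ETS factor known to act on the urokinase enhancer, rose from 30.2 ± 2.07 CPM to 54.9 ± 18.6 CPM (SD, n = 4), without overlap. The log2 fold change was 0.86 (SE 0.22, edgeR adjusted p = 0.0395), it stayed between 0.65 and 1.01 with each female liver left out, and it passed in 2 of those 8 fits. With only the female groups fitted it did not pass (0.87, edgeR adjusted p = 0.0932), so none of the 4 genes called by edgeR in these lists passed in that fit. In females 2 of the 7 had an unadjusted p under 0.05, as had 3584 of all 16742 genes. Of the AP-1 subunits, Jun was at a log2 fold change of 0.75 (SE 0.34, edgeR adjusted p = 0.206), Fos at -0.15 (SE 0.52) and Junb at 0.39 (SE 0.37). In males and between control sexes both tools called 0, with 0 at an unadjusted p under 0.05 by edgeR. The smallest p values there belonged to AP-1 subunits, with Jun at 0.48 (SE 0.34) and Fos at 0.65 (SE 0.52) in males, and Fos at 0.93 (SE 0.52) and Junb at 0.43 (SE 0.37) between control sexes. With each mouse left out in turn, male Jun ranged from 0.03 to 0.71 and male Fos from 0.19 to 0.94. Between control sexes the ranges were 0.43 to 1.14 for Fos and 0.13 to 0.69 for Junb.

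The upstream sequence of Plaur, a member whose female groups did not overlap, is shown with the AP-1 motif, the site bound by those Jun and Fos subunits. RefSeq promoter sequences (GRCm38.p6) matched 3 of the 6 members by symbol, Plaur, Serpine2 and Serpinf2. On both strands of the 250 bases before the RefSeq start, a script searched for the AP-1 motif TGANTCA, where N is any base, and for the NF-κB motif. It also searched for the cAMP response element (CRE) with the letters TGACGTCA, and for the GC box, which binds Sp1 and reads GGGCGG. The last motif searched was that of the TATA box, written TATAAA. The Plaur sequence had a single match on chromosome 7 of GRCm39, and the 199 bases before the annotated start of the gene are chr7:24161658-24161856 on the forward strand, with the AP-1 match in capitals.
Plaur: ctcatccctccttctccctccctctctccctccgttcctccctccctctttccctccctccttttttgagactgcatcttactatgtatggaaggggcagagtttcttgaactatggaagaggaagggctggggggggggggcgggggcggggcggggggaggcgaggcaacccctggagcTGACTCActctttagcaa
The AP-1 match lies at chr7:24161839-24161845, which is 69 bases before the RefSeq start of the promoter sequence. That start lies downstream of the annotated start at 24161857, so the match is nearer than 69 bases to the end of the printed bases. Of 32536 promoters with a window of 250 bases, 6.73% hold such a match. The window also holds 3 GC box matches, which overlap or adjoin, as do 33% of promoters at least once, and no match to CRE, TATA box or NF-κB motifs, which 1.56%, 12.3% and 7.28% of promoters hold. Serpine2 had 6 GC box matches and none to the other motifs, and Serpinf2 had no match to any of the 5 motifs. A match is a description of letters and says nothing of binding in these livers.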

How the data were processed

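Reads of 16 poly-A selected liver libraries were aligned by the authors to GRCm39 with STAR 2.7.1a and counted per gene with featureCounts (Subread 2.0.6), per the submitters' processing notes and the file header. The deposited counts are not normalized. Each read of a pair was counted, so 83.0% to 88.6% of the counts from 1 to 10 were even. The counting used the strand, and whether the kit marked it is not given in the sources used here. The counts were filtered with filterByExpr (minimum count 10, 16742 of 41079 genes kept), normalized by TMM and fitted together by edgeR 4.0.16 in R 4.3.3, with 4 groups, quasi-likelihood tests, and p adjusted by Benjamini-Hochberg over all genes tested. DESeq2 1.42.0 was an alternative. Permutation tests of correlations were two-sided, with 100000 resamples within groups, and adjusted over 15 pairs. RPKM used the deposited gene lengths. The members and gene lists were chosen with earlier results of these data known. Named genes were the members, Gcgr, genes of the wider lists past an adjusted p of 0.05 or up to 2 with the smallest p in a comparison, the 5 genes most correlated with Plau and with Plaur, and the most abundant marker of each list, and 1 gene that met this rule is not reported here. A test on simulated counts recovered 146 of 200 genes changed 4-fold in the female comparison of 16742 genes. Alternatives were RLE normalization, other filters, a replicate block, only the groups compared, counts halved (chosen after seeing the data), and leaving out each mouse.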

Additional observations from a re-analysis of the deposited data

Results flagged for a closer look

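Values that stood far from the other 3 livers of their group were searched for in 100 groups of 4 livers (25 genes), where chance alone marks about 1 group in 20, and 13 were found. Among the members, Plat was at 20.9 CPM in female LKO replicate 4 against 1.56 to 1.83 CPM in the others, Serpinf2 at 1130 CPM in male CRE- replicate 4 against 758 to 797 CPM, and Serpinf2 at 1070 CPM in female LKO replicate 3 against 832 to 869 CPM. Gcgr was at 127 CPM in male CRE- replicate 3 against 190 to 193 CPM. Female LKO replicate 1 stood apart for Lrp1 (1420 CPM against 678 to 765), Mrc2 (8.13 CPM against 3.69 to 3.79) and Mmp3 (1.11 CPM against 0 to 0.0732). Male LKO replicate 1 stood apart for Itgam (12 CPM against 2.46 to 3.33) and Fn1 (843 CPM against 1120 to 1140). The others were F13b at 202 CPM in male CRE- replicate 2 against 147 to 151, Ets2 at 41.9 CPM in male LKO replicate 2 against 33.8 to 34.5, Egfr at 163 CPM in female CRE- replicate 1 against 23.8 to 41.8, and Hgfac at 426 CPM in female CRE- replicate 4 against 360 to 365.

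In 2 genes every LKO liver of a sex lay above the mean log2 CPM of its controls and every LKO liver of the other sex below that of theirs. F13b was lower in females and higher in males, a female minus male log2 change of -0.75 (edgeR adjusted p = 0.213). Mrc2 was higher in females and lower in males, a difference of 1.17 (edgeR adjusted p = 0.299). Neither difference passed the threshold.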

How the results depend on the processing

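The calls depended on the tool and on single mice more than the directions did. The cause was not tested, apart from fewer samples or genes where a setting removes them. With DESeq2 the count of genes past the threshold was 1795 in female LKO, 335 in male LKO, 369 in the interaction and 498 between control sexes, and 2 members passed in the interaction. Without a filter on low counts 12 genes passed in the interaction, and with at least 10 counts in every library 78 passed between control sexes. With only the groups compared 119 genes and 1 member passed in female LKO, and 249 genes between control sexes. Without the 2 farthest livers 0 of 15 member pairs passed, against 1. Plau and Plat had r = 0.25 over all livers. Without female LKO replicates 1 and 2 their r was 0.60 (permutation p = 0.0133, adjusted p = 0.0996).

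With a replicate block the genes past the threshold in female LKO were 1244, and 2, 0, 0 and 0 members passed in female LKO, male LKO, the interaction and between control sexes, as without it. Livers with the same number were correlated over the genes tested, in log2 CPM after the group mean of each gene was taken out. These correlations of deviations were 0.03 to 0.17 between CRE- and LKO livers in females and -0.01 to 0.17 in males. Between the control sexes they were 0.21, 0.20, 0.03 and 0.33, and 3 of 4 livers correlated best with their own number. What the numbers stand for was not tested, and the permutation tests of member pairs did not use them.

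With each mouse left out, the count of genes was 87 to 1310 in female LKO, 26 to 49 in male LKO, 0 to 14 in the interaction and 68 to 149 between control sexes, and that of members in female LKO 0 to 3. The member count in male LKO, the interaction and between control sexes was 0 in all those fits. Log2 fold changes that crossed 0 ranged in male LKO from -0.23 to 0.48 (Plaur), -0.13 to 0.0012 (Plg) and -0.20 to 0.044 (Serpinf2), in female LKO from -0.39 to 0.43 (Serpine2), and between control sexes from -0.45 to 0.0596 (Plat) and -0.0414 to 0.17 (Gcgr). Correlations that changed sign without the 2 farthest livers were Plau and Serpine2 (-0.34), Plat and Plg (0.17), Plat and Serpinf2 (0.29) and Serpine2 and Serpinf2 (-0.39, and -0.13 as Spearman rho). With counts halved, 2 members passed in female LKO and 0 in the other comparisons. Plat, with 20 to 100 reads in 15 of 16 livers, had the fewest counts among the members, beside Plaur.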

Other observations

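Of the pathway genes listed, 4 were too low to be tested by edgeR: Serpinb2, Serpina5, A2m and the AP-1 subunit Fosl1. Serpinb2 had 2, 2, 0 and 0 reads in female CRE- livers and 8, 8, 10 and 4 reads in female LKO livers. A2m, alpha2-macroglobulin, had 218 reads (6.31 CPM) in female LKO replicate 4, the liver with 20.9 CPM of Plat, and at most 30 reads in any other liver. Serpina5 and Fosl1 also had their highest counts in that liver, 14 and 18 reads, against at most 6 and 4 reads elsewhere.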
